A study of Mus musculus with 6 samples.

Results

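Adcy6 and 9 other genes that make, break down or respond to cyclic AMP were examined in regulatory T cells (Treg) from mice without the histone deacetylase HDAC9. The 10 genes are Adcy6, Adcy7, Pde3b, Pde4b, Pde7a, Prkaca, Prkar1a, Creb1, Crem and Adora2a. All probe sets whose platform gene symbol is one of these names were taken, which gave 20 probe sets of 8 genes among the 22626 probe sets tested. Pde3b and Adora2a had no probe set of that symbol and were not analysed here. Adcy6 was placed at the head of the group because of its difference between the genotypes in these same arrays, and the other genes were proposed with results of that comparison known. The differences of Adcy6 are therefore a description without a test, and the adjusted p-values of the other genes are not independent evidence.

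The tested samples were 3 preparations of CD4+CD25+ Treg from HDAC9-/- mice, and they were set against 3 preparations from wild type mice, all of the C57BL/6 strain. The cells were separated with magnetic beads, and total RNA of each preparation was amplified, labelled with biotin and hybridised to 1 Affymetrix array. The labels name no cell type to which the loss of HDAC9 was restricted, and the sources used here do not give the age of the mice. The preparations are described as independent, but no label says that each came from its own mouse, so a p-value here measures only how these preparations spread, which may be technical. Values are the log2 expression values that the authors made with RMA, which summarises the probes of a probe set, and differences are HDAC9-/- minus wild type.

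Cyclic AMP is a messenger molecule that restrains T cell activation. Adenylyl cyclases make it from ATP when Gs-coupled receptors, such as those for adenosine and prostaglandin E, are engaged, and phosphodiesterases (PDE) break it down. It frees the catalytic subunits of protein kinase A from their regulatory subunits, and the kinase phosphorylates CREB and the related factor CREM, which bind the cyclic AMP response element in DNA. In T cells the kinase also acts on Csk, which inhibits the T cell receptor kinase Lck. Treg are known for a high content of cyclic AMP, which they can pass to other T cells.

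Of 7 T cell and Treg markers, 1 was dimmer than the median probe set (5.76). It was Ikzf2, at 4.89 to 5.29 in HDAC9-/- and 4.36 to 5.24 in wild type samples. Foxp3, Cd4 and Il2ra were bright on every array in their brightest probe sets. Foxp3, the factor that defines Treg, read 10.35, 10.33 and 10.44 in HDAC9-/- Treg, against 10.35, 10.29 and 10.38 in wild type Treg. Cd4 read 9.75 to 9.91, against 9.78 to 9.97 (probe set 1419696_at). A dimmer Cd4 probe set, 1427779_a_at, read 4.98 to 5.33 in HDAC9-/- and 5.47 to 5.71 in wild type Treg. It was lower without overlap, with a difference of -0.38 (limma, adjusted p = 0.496). Il2ra, which encodes the CD25 used to separate the cells, read 9.42, 9.34 and 9.42 in HDAC9-/- Treg, against 9.45, 9.46 and 9.54 in wild type Treg (probe set 1420692_at). These groups did not overlap, by a small margin, with a difference of -0.08 (limma, adjusted p = 0.712), and a dimmer Il2ra probe set, 1420691_at, was lower without overlap too (difference -0.19; limma, adjusted p = 0.557). The 1 probe set of Hdac9 was dim on every array, at 3.62 to 3.74 in HDAC9-/- and 3.50 to 4.10 in wild type samples, and no source used here gives the deleted exons, so it does not check the genotype. Wild type replicate 3 stood apart, with the lowest array median (5.69, against 5.77 to 5.81 for the other arrays) and the lowest mean correlation with the other arrays. The 3-prime minus 5-prime difference of the Gapdh control probe sets, a sign of RNA integrity and labelling, was 0.15 to 0.28 in HDAC9-/- and 0.026 to 0.11 in wild type samples. The same difference of the actin control probe sets was 0.42 to 0.60 in HDAC9-/- and 0.33 to 0.46 in wild type samples, which overlap. All 11 measured myeloid markers of 12 listed were higher in HDAC9-/- samples, and their summed signal on the linear scale was 10631 to 12633 in HDAC9-/- and 5028 to 8676 in wild type samples. The neutrophil genes S100a8 (difference 0.96) and S100a9 (1.01) were the brightest of them and weigh most in that sum; they, Cst3 (0.33) and Cd68 (0.46) stood apart between the genotypes, and the other markers overlapped. The summed signal of 3 plasma cell markers was 2881 to 3298 in HDAC9-/- and 4111 to 4408 in wild type samples, which is mostly that of Jchain (11.52 in HDAC9-/- and 11.99 in wild type samples on average), while Sdc1 (-0.05) and Prdm1 (0.02) overlapped. Of 8 CD8 T and natural killer cell markers 6 were higher, with overlapping sums of 3421 to 4179 in HDAC9-/- and 3061 to 3920 in wild type samples. Of 6 B cell markers 4 were higher, with sums of 789 to 1317 in HDAC9-/- and 901 to 1105 in wild type samples, and of 5 red cell and platelet markers 2 were. RMA values have no zero and the table has no detection calls, so absence of a marker could not be read from them.

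Both measured adenylyl cyclases of the group had less signal in HDAC9-/- Treg, without passing the threshold, while phosphodiesterase, kinase and CREB family genes overlapped between the genotypes. Adcy6, a membrane-bound adenylyl cyclase that calcium inhibits, was on average at 62.2% of its wild type signal. Adcy7, an adenylyl cyclase abundant in leukocytes, was at 75.1% to 86.4% in its 3 probe sets. With limma over all probe sets and an adjusted p threshold of 0.05, 0 of the 20 probe sets passed, where 0.0133% of all probe sets did. At an unadjusted p below 0.05 there were 4 of 20, the probe sets of Adcy6 and Adcy7, all lower, beside 3.23% of all probe sets that were lower at that level (8.78% in either direction). For 3 of 20 the groups did not overlap, all lower, beside 6.04% of all probe sets (17.0% in either direction). Adcy6 was chosen for its difference in these arrays, and the 3 probe sets of Adcy7 share their RNA. Neither count is therefore evidence about the group.

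Adcy6 was measured by 1 probe set (1418128_at). It read 7.96, 7.63 and 8.01 in HDAC9-/- replicates 1 to 3, against 8.37, 8.74 and 8.55 in wild type replicates 1 to 3. Every HDAC9-/- array lay below every wild type array, with a gap of 0.35 between the highest HDAC9-/- and the lowest wild type value, and HDAC9-/- replicate 2 was the lowest of all. The means were 7.87 ± 0.21 in HDAC9-/- and 8.55 ± 0.19 in wild type Treg (SD, n = 3), which puts the difference at -0.69 (standard error 0.14). Of the 22626 probe sets, 0.172% had a difference this low or lower, which describes how the gene came to be chosen and supports nothing. The difference was -0.69 without wild type replicate 3, the array that stood apart, and -0.57 to -0.78 over the fits that each left out 1 array. No other probe set of Adcy6 could check this value. In samples of mixed cells, fewer cells of a type and less RNA per cell cannot be told apart. The HDAC9-/- arrays, lower for Adcy6, also had the wider Gapdh difference and the higher summed myeloid signal. Their summed plasma cell signal, mostly that of Jchain, was lower (2881 to 3298, against 4111 to 4408 in wild type samples). Their actin difference overlapped that of wild type arrays. The part of these in the result was not tested.

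**Figure D1:**
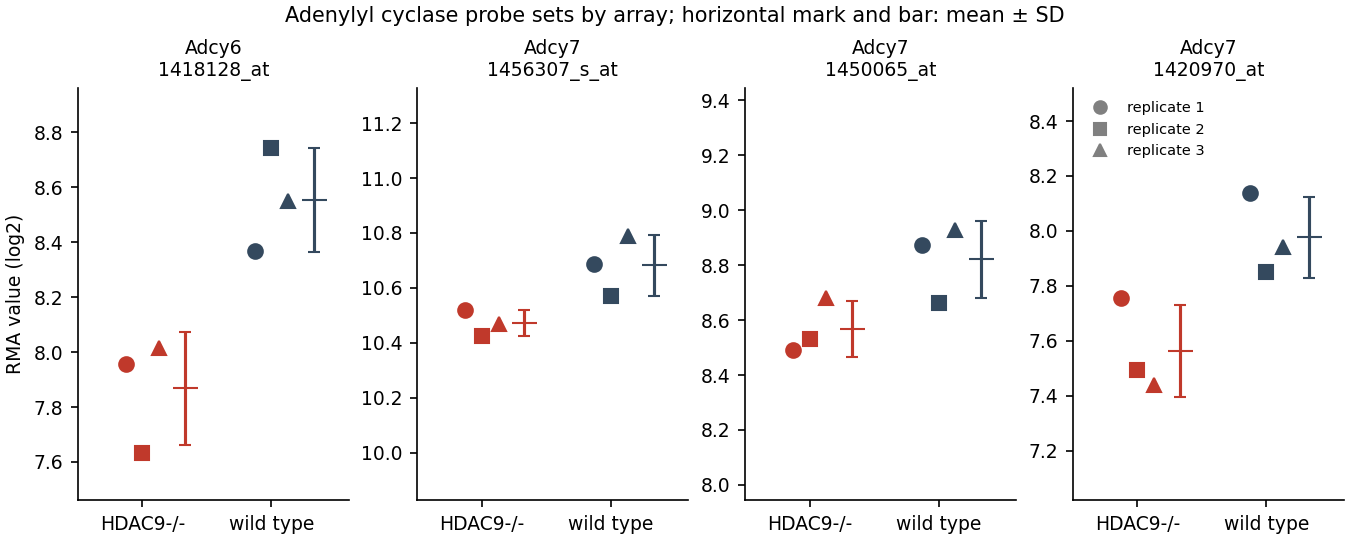
RMA values (log2) of the probe sets of Adcy6 and Adcy7 on each of the 6 arrays, HDAC9-/- left and wild type right, with symbols for replicate numbers and the mean ± SD beside them; each panel spans the same number of log2 units around its own mean. The HDAC9-/- points lie below the wild type points for Adcy6 (7.63 to 8.01 against 8.37 to 8.74) and for Adcy7 except in probe set 1450065_at, where the ranges meet.

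Adcy7 was lower in all 3 of its probe sets, by a smaller amount. In the brightest (1456307_s_at, where the suffix marks probes shared by several transcripts) it read 10.52, 10.43 and 10.47 in HDAC9-/- Treg, against 10.69, 10.57 and 10.79 in wild type Treg. The groups did not overlap, and the difference was -0.21 (standard error 0.08; limma, adjusted p = 0.549). Probe set 1420970_at read 7.76, 7.49 and 7.44 in HDAC9-/- Treg, against 8.14, 7.85 and 7.94 in wild type Treg. These groups did not overlap either, and the difference was -0.41 (standard error 0.12; limma, adjusted p = 0.445). Probe set 1450065_at read 8.49, 8.53 and 8.68 in HDAC9-/- Treg, against 8.87, 8.66 and 8.93 in wild type Treg. Here HDAC9-/- replicate 3 lay just above wild type replicate 2, and the difference was -0.25 (standard error 0.10; limma, adjusted p = 0.549). The 3 probe sets share their RNA and are not replicates of each other. Without wild type replicate 3 the differences were -0.16 in 1456307_s_at, -0.43 in 1420970_at and -0.20 in 1450065_at. Myeloid cells also express Adcy7, and the summed myeloid signal was 10631 to 12633 in HDAC9-/- and 5028 to 8676 in wild type samples; the part of such cells in the Adcy7 values was not tested.

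The RefSeq promoter table (build GRCm38.p6) holds 16 start sites for 5 of the 10 genes, namely Adcy7, Creb1, Pde4b, Prkaca and Prkar1a. The 250 bases before each start were searched on both strands for the full cyclic AMP response element, TGACGTCA, and for its core, TGACG, which each full element also contains. The full element was in 1 of the 16, beside 1.55% of 32851 promoter windows of this length, and the core was in 6 of 16, beside 17.8%. Several windows of a gene overlap or lie close together and are not independent. A match describes letters and is not evidence that a factor binds there. The windows shown were picked for their matches. Of 3 Adcy7 windows 1 had the core, and that window is shown, with the core 28 bases before its start. Of 6 Prkar1a windows 3 had the core, and the window shown is the 1 with the full element. That element begins 49 bases before the start, with a further core 187 bases before the start. The windows shown lie at chr8:88282742-88282991 and chr11:109650699-109650948, both on the plus strand. Capitals mark the core and the full element, on either strand.
Adcy7: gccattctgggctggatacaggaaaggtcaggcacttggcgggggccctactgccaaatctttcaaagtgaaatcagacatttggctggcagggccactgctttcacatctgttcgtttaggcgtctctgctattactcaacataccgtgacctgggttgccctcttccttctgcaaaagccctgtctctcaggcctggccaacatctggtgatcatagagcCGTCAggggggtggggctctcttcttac
Prkar1a: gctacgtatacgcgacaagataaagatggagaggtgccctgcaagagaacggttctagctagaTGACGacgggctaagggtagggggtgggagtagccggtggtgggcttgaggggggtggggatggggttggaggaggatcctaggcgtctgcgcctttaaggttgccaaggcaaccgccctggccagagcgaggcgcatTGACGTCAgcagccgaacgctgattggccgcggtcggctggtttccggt

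The phosphodiesterases that break cyclic AMP down had 4 higher and 2 lower probe sets in HDAC9-/- Treg, all with overlapping genotypes. Pde4b, a cyclic AMP-specific phosphodiesterase that is recruited to the stimulated T cell receptor, read 8.69, 8.74 and 8.81 in HDAC9-/- Treg, against 8.61, 8.63 and 8.74 in wild type Treg (probe set 1422474_at). These ranges overlapped, and the 95% confidence interval of the difference of 0.09 ran from -0.08 to 0.26. Its other probe set, 1422473_at, spread more widely, with 7.55, 7.96 and 8.14 in HDAC9-/- and 7.69, 8.04 and 7.76 in wild type Treg. That difference was 0.05 with an interval of -0.35 to 0.45, so its arrays leave room for a change in either direction.

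Pde7a, a high-affinity cyclic AMP phosphodiesterase of T cells, had 4 probe sets, of which 2 were lower and 2 higher in HDAC9-/- Treg. The differences ran from -0.13 to 0.09, and the genotypes overlapped in all 4. Probe set 1423314_s_at read 6.46, 6.69 and 6.84 in HDAC9-/- Treg, against 6.79, 6.94 and 6.64 in wild type Treg, a difference of -0.13. Probe set 1450933_at read 6.40, 6.39 and 6.66 in HDAC9-/- Treg, against 6.51, 6.44 and 6.30 in wild type Treg, a difference of 0.07. In probe set 1423313_at, HDAC9-/- Treg read 6.17, 6.19 and 6.06 and wild type Treg 6.32, 6.18 and 6.25, so the ranges met only at their edges (difference -0.11). The dimmest, 1451839_a_at, read 4.71, 4.70 and 4.94 in HDAC9-/- Treg, against 4.89, 4.57 and 4.61 in wild type Treg (difference 0.09). Over the 4 probe sets the 95% intervals reached from -0.42 to 0.36. The probe sets of this gene thus gave opposite signs from the same RNA, each within its own spread between arrays.

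**Figure D2:**
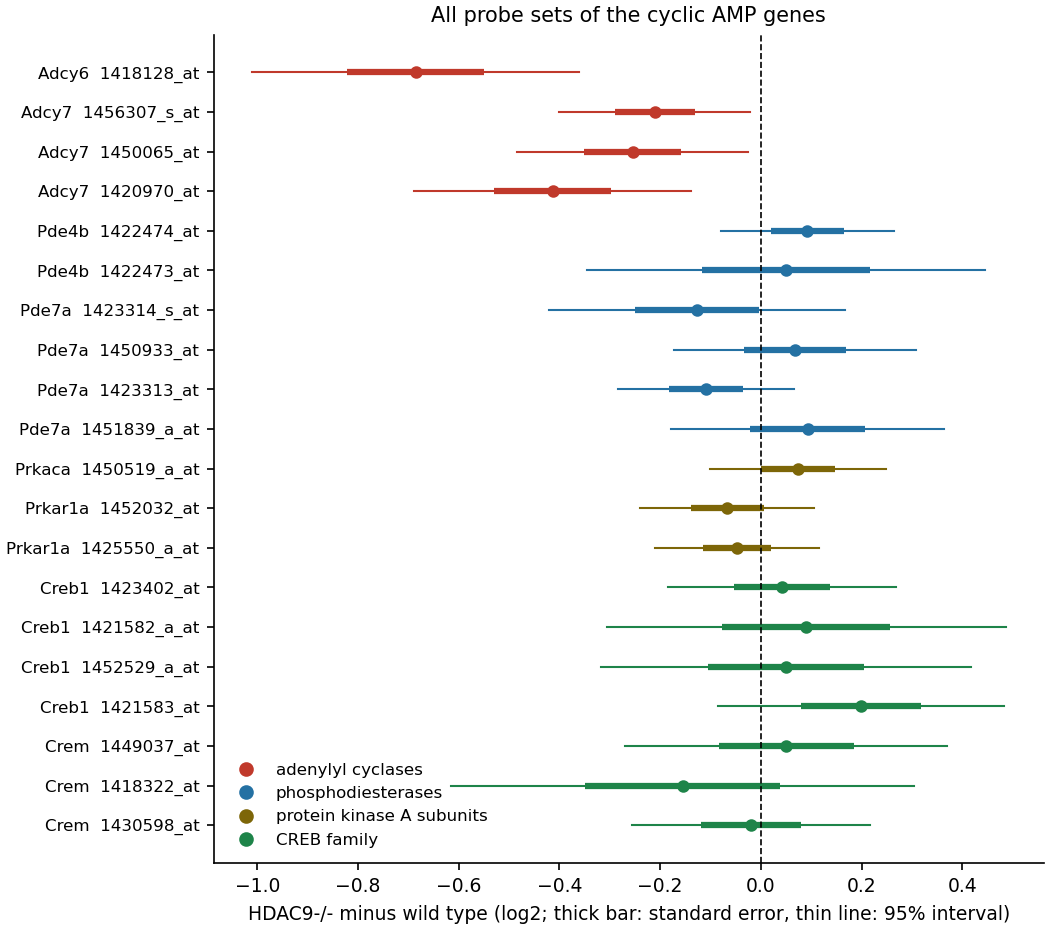
Difference between HDAC9-/- and wild type Treg (log2) for each of the 20 probe sets, with the standard error (thick) and the 95% interval (thin) from limma, coloured by class. The 4 cyclase probe sets lie between -0.69 and -0.21 and the other 16 between -0.15 and 0.20; since Adcy6 was chosen for its difference, its interval is no test.

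The subunits of protein kinase A overlapped between the genotypes in all 3 probe sets. Prkaca, a catalytic subunit, read 7.62, 7.49 and 7.68 in HDAC9-/- Treg, against 7.54, 7.53 and 7.50 in wild type Treg (1450519_a_at). The wild type values lay within the HDAC9-/- range, and the difference was 0.07 with a 95% interval of -0.10 to 0.25. Prkar1a, the type I regulatory subunit that holds the catalytic subunits inactive, was bright in both of its probe sets. The brighter, 1452032_at, read 10.55, 10.54 and 10.49 in HDAC9-/- Treg, against 10.59, 10.51 and 10.69 in wild type Treg. Its difference was -0.07, with an interval of -0.24 to 0.11. Probe set 1425550_a_at read 9.56, 9.45 and 9.42 in HDAC9-/- Treg, against 9.54, 9.51 and 9.52 in wild type Treg, a difference of -0.05 with an interval of -0.21 to 0.12. For Prkar1a, both intervals therefore end well short of the Adcy6 difference of -0.69.

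The CREB family members are the transcription factors at the end of the pathway. Creb1, which encodes CREB, had positive differences in all 4 probe sets, from 0.04 to 0.20, and overlapping genotypes in each. Without wild type replicate 3, the array that stood apart, 3 of these differences were negative (-0.09 in 1421582_a_at, -0.05 in 1423402_at and -0.05 in 1452529_a_at) and that of 1421583_at was 0.11. Of the 4 probe sets, 3 were dimmer than the median probe set (5.76). The remaining one, 1423402_at, read 6.86, 6.78 and 6.75 in HDAC9-/- Treg, against 6.89, 6.80 and 6.58 in wild type Treg. The HDAC9-/- values lay inside the wild type range, and the 95% interval ran from -0.18 to 0.27. The largest Creb1 difference, 0.20, came from probe set 1421583_at, which read 2.77, 3.07 and 2.90 in HDAC9-/- and 2.69, 2.90 and 2.54 in wild type Treg, near the lowest value of the table (2.42). A probe set this dim may read little but background.

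Crem encodes activators and, from an internal promoter, the repressor ICER, which cyclic AMP induces. Its brightest probe set, 1449037_at, read 6.90, 6.80 and 7.05 in HDAC9-/- Treg, against 7.07, 6.94 and 6.60 in wild type Treg. The genotypes overlapped, and the difference was 0.05 with a 95% interval of -0.27 to 0.37. It was -0.08 when wild type replicate 3 was left out and 0.15 in the fit that lacked wild type replicate 1, so single arrays decide its sign. The other Crem probe sets were dimmer than the median probe set. Of these, 1418322_at read 4.93, 4.61 and 4.89 in HDAC9-/- Treg, against 5.27, 5.08 and 4.54 in wild type Treg, a difference of -0.15, and 1430598_at differed by -0.02. Wild type replicate 3 gave the lowest wild type value in each Crem probe set. Without it the difference of 1418322_at was -0.37, and without wild type replicate 1 it was -0.00019, so single wild type arrays decide this value; it passed in neither case. No source used here says which Crem transcripts a probe set reads, so ICER was not told apart from the activators.

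The other genes of the cyclic AMP pathway were taken from lists chosen by role, with 60 of 84 listed genes measured by a probe set of a single symbol. On the brightest probe set of each gene, 31 were higher and 29 lower in HDAC9-/- Treg, and the median difference was 0.0047, beside 0.013 over all 12393 genes. With limma over all probe sets 0 of the 60 passed in either direction. At an unadjusted p below 0.05 there were 4, of which 3 were higher and 1 lower, or 6.67%, beside 8.74% of all genes. For 9 of the 60 the groups stood apart, 5 higher and 4 lower, or 15%, beside 18.2% of all genes. Both shares lay near those of all genes.

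Of the other adenylyl cyclases 5 were measured, and 3 had positive and 2 negative differences, around a median of 0.03, and 4 were dimmer than the median probe set. Adcy9, a cyclase that a microRNA is known to restrain in conventional T cells, read 5.25, 5.27 and 5.27 in HDAC9-/- Treg, against 5.20, 5.24 and 5.06 in wild type Treg. The groups did not overlap, and the difference was 0.09 (standard error 0.07; limma, adjusted p = 0.704). Its 2 other probe sets were dimmer and had differences of 0.01 and -0.15. In the second of these, 1449620_s_at, the groups did not overlap either, in the opposite direction. Adcy8 (-0.17) and Adcy2 (0.06), cyclases best known from the nervous system, overlapped between the genotypes. Adcy3 alone was brighter than the median probe set, and it differed by 0.03 with overlap (1421960_at). Its dimmer probe sets differed by -0.21 to 0.03, also with overlap.

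Upstream of the cyclases, 3 of 7 measured Gs-coupled receptors were higher and 4 lower in HDAC9-/- Treg. Ptger2, a receptor for prostaglandin E, read 6.55, 6.59 and 6.78 in HDAC9-/- Treg, against 7.36, 7.02 and 6.71 in wild type Treg. Only wild type replicate 3 reached into the HDAC9-/- range, and the difference was -0.39 (standard error 0.17; limma, adjusted p = 0.572). Ptger4, another prostaglandin E receptor, was brighter in 1424208_at, where it differed by -0.09 (limma, adjusted p = 0.671). In the dimmer 1421073_a_at it differed by -0.25 (limma, adjusted p = 0.495). In both Ptger4 probe sets the groups did not overlap. Hrh2, the histamine receptor that couples to Gs, was higher by 0.20 (limma, adjusted p = 0.541), and Ptgir, the prostacyclin receptor, by 0.18 (limma, adjusted p = 0.625). Myeloid cells express Hrh2 as well, and the myeloid markers were higher in the same samples; their part in the Hrh2 value was not tested. Among the G protein subunits, the bright probe sets of Gnas (-0.07), which encodes the stimulatory subunit, and of Gnai2 (-0.03) and Gnai3 (0.08), which encode inhibitory subunits, overlapped between the genotypes. Gnas had 3 dimmer probe sets as well, with differences of -0.45, -0.44 and -0.19 that did not pass. The genes that supply, take up or export adenosine and cyclic AMP had 4 positive differences among 5 measured, with a median of 0.045. Ada, the deaminase that destroys adenosine, differed by 0.10, the adenosine transporter gene Slc29a1 by -0.07 and the connexin gene Gja1, dim on every array, by 0.09.

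**Figure D3:**
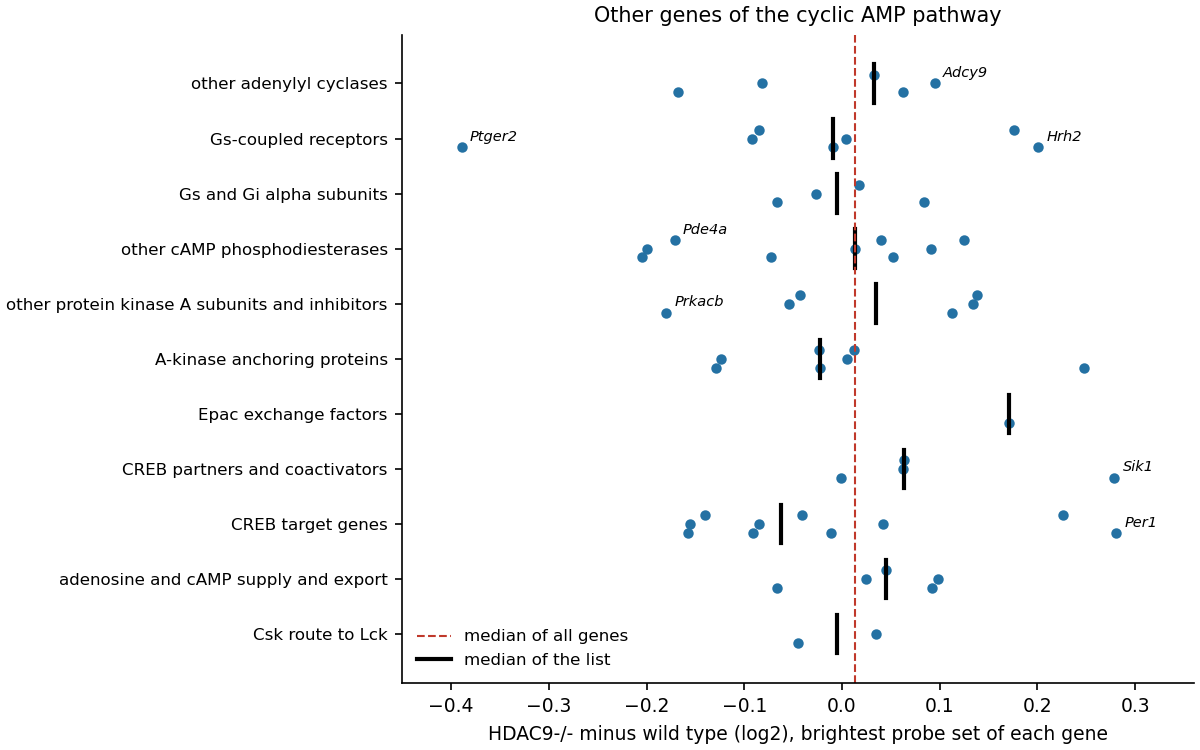
Difference between HDAC9-/- and wild type Treg (log2) of the brightest probe set of each of 60 other pathway genes, 1 point per gene and 1 row per list, with the list median as a black bar and the median of all genes (0.013) as a dashed line. Points scatter on both sides of the dashed line in most lists, and Ptger2 (-0.39), Per1 (0.28) and Sik1 (0.28) lie farthest out.

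Of the other phosphodiesterases 5 were higher and 4 lower on the brightest probe set of each gene, with a median of 0.01. Pde4a, a close relative of Pde4b, read 5.06, 5.21 and 5.10 in HDAC9-/- Treg, against 5.31, 5.30 and 5.27 in wild type Treg. The groups did not overlap, but the signal was dimmer than that of the median probe set and the difference was -0.17 (limma, adjusted p = 0.557). Pde1c and Pde3a, both dim, differed by -0.20 each and overlapped. Pde8a differed by 0.09 with overlap, and by -0.32 without overlap in a dimmer probe set. Pde10a differed by -0.07, and by -0.49 and 0.01 in dimmer probe sets, all with overlap. The dimmer probe sets of Pde1c, Pde3a and Pde7b differed by -0.09 to 0.02, with overlap. Among 6 further kinase A subunits and inhibitors, 3 were higher and 3 lower. Prkacb, the other widespread catalytic subunit, read 9.24, 9.44 and 9.44 in HDAC9-/- Treg, against 9.58, 9.62 and 9.46 in wild type Treg. These groups did not overlap, by a narrow margin, and the difference was -0.18 (standard error 0.09; limma, adjusted p = 0.601). A dimmer Prkacb probe set differed by 0.02, with overlap. The inhibitor genes Pkig and Pkib differed by 0.14 and 0.13, and overlapped; a dimmer Pkig probe set differed by 0.26.

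The anchoring proteins that place kinase A in the cell had 3 positive and 4 negative differences and a median of -0.02. Akap7 differed by -0.13 at a dim level, and Akap1, which anchors the kinase at mitochondria, differed by 0.25 in 1 probe set and by -0.49 in a dimmer one. Ezr, a linker of membrane and actin that also binds the kinase, differed by -0.02. The 1 measured Epac gene, Rapgef3, an exchange factor that cyclic AMP activates directly, differed by 0.17 at a dim level, with overlap. Its dimmer probe sets differed by -0.10 to 0.06, also with overlap. Csk and Pag1, the kinase and its membrane adaptor on the route to Lck, differed by -0.05 and 0.03.

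Genes that CREB regulates had 3 positive and 7 negative differences among 10 measured, with a median of -0.06. Per1, a circadian clock gene with cyclic AMP response elements, read 9.03, 9.05 and 9.31 in HDAC9-/- Treg, against 8.80, 8.85 and 8.90 in wild type Treg. Every HDAC9-/- array was higher, and the difference was 0.28 (standard error 0.09; limma, adjusted p = 0.517). Nr4a1 and Nr4a3, orphan nuclear receptors induced by T cell receptor signals as well, both differed by -0.16. Sik1, a kinase that CREB induces and that restrains the CREB coactivators, read 6.58, 6.59 and 6.82 in HDAC9-/- Treg, against 6.31, 6.49 and 6.36 in wild type Treg, a difference of 0.28 (limma, adjusted p = 0.517). The 4 measured partners and coactivators of CREB included Crebbp (0.06) and Crtc3 (0.06), both overlapping between genotypes.

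The probe sets whose pattern over the 6 arrays was most like that of Adcy6 were found among 10372 probe sets of a single symbol at or above the median brightness. Likeness was the root mean square difference, in log2 units, between the centred values. The 5 nearest were Ctr9 (0.152), Hnrnpr (0.156), Ubxn11 (0.156), Rsrc2 (0.164) and Tspan13 (0.166), and none of the other cyclic AMP genes with a probe set bright enough to be ranked was among them. Ctr9, part of the PAF1 complex that accompanies transcription, read 6.14, 6.12 and 6.48 in HDAC9-/- Treg, against 6.74, 7.13 and 6.62 in wild type Treg. Tspan13, a tetraspanin gene close to Hdac9 in gene order, read 9.27 to 9.32 in HDAC9-/- Treg, against 9.90 to 10.10 in wild type Treg. All 5 share the lower HDAC9-/- level, which is what the measure rewards, and they were picked by it, so their differences of -0.50 to -0.71 are a description. The likeness often rests on single probe sets: other probe sets of Ctr9 differed by -0.20, -0.30 and 0.09, those of Hnrnpr by -0.04 and -0.23, and that of Rsrc2 by -0.06. The other probe set of Tspan13 differed by -0.65.

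**Figure D4:**
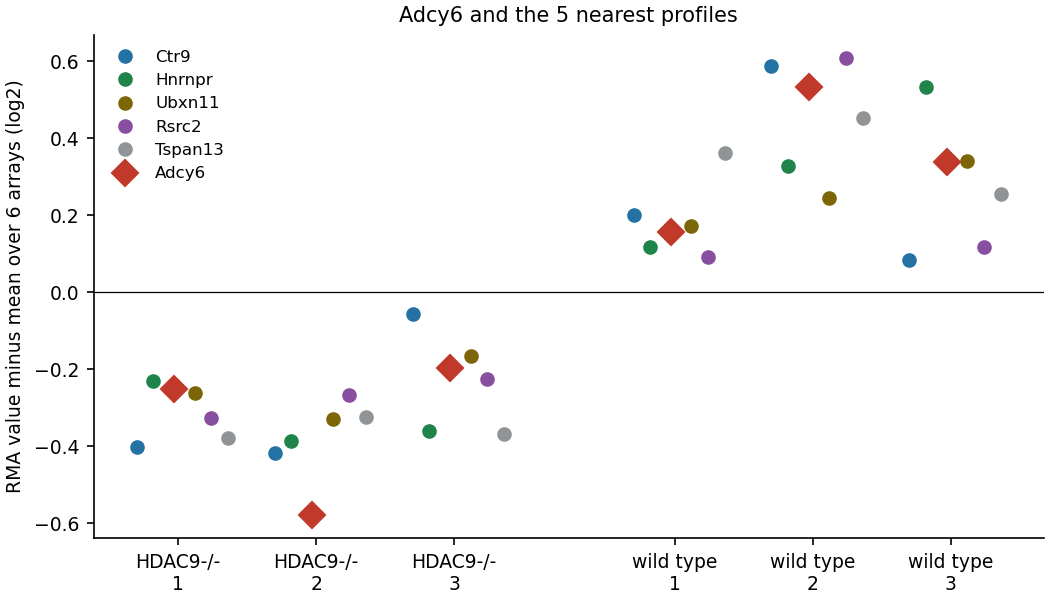
RMA values (log2) minus the mean over the 6 arrays for Adcy6 (diamonds) and the 5 probe sets with the smallest root mean square difference from it (0.152 to 0.166), HDAC9-/- replicates left and wild type replicates right. All points of the HDAC9-/- arrays lie below 0 and all points of the wild type arrays above it, and HDAC9-/- replicate 2 is farthest down for Adcy6.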

How the data were processed

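RNA of 3 HDAC9-/- and 3 wild type Treg preparations was hybridised to 1 array each. The deposited table holds log2 expression values of 22690 probe sets (2.42 to 14.32). Per the submitters' processing notes the authors used RMA, and neither its settings nor a genome build is stated in the sources used here. Sample titles gave the groups and replicate numbers. After 64 control probe sets were left out, 22626 were tested at any brightness. In the platform annotation 20380 of them had a single gene symbol, 691 had several and 1555 had none. For the lists, 20364 symbols were updated by Entrez identifier.

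Differences were fitted over the whole table with limma 3.58.1 (R 4.3.3; lmFit, then eBayes, with genotype as the 1 term), and p-values were adjusted by Benjamini-Hochberg. Having 6 arrays limits the precision. The fit was tested on simulated data. The genes, lists and alternatives were chosen with earlier results of these data known. Named were all probe sets of the 10 genes, up to 3 genes per list by smallest unadjusted p on each gene's brightest probe set, Foxp3 and Hdac9 as checks, and the 5 profiles nearest to Adcy6. Genes named outside this rule were chosen after their values were seen. Replicate numbers were not used as pairs in the main fit. Deviations from the group means correlated at 0.036, 0.099 and -0.25 for numbers 1 to 3, and at -0.35 to 0.28 between unlike numbers. With 3 arrays per group these values cannot tell whether arrays of the same number belong together. Alternatives were repeated quantile normalization, aligned array medians, dim probe sets left out, a trended and robust prior, the replicate number as a block, weights per array, 1 probe set per gene, and leaving out each array. Promoter sequences came from RefSeq. Python 3.11.15 with matplotlib 3.10.9 drew the figures.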

Additional observations from a re-analysis of the deposited data

How the results depend on the processing

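Under all 13 alternatives 0 probe sets of the cyclic AMP genes passed with limma, and under the 12 that applied 0 of the other pathway genes did. The lowest adjusted p of any Adcy7, phosphodiesterase, kinase or CREB family probe set was 0.224, for Adcy7 with dim probe sets left out. The Adcy6 difference (-0.69) ran from -0.78 to -0.57 without single arrays and from -0.74 to -0.69 under the other alternatives, the replicate block included (-0.69). Signs held for 13 of 20 probe sets, among them all of Adcy6 and Adcy7, and turned under at least 1 alternative for 7 probe sets of Creb1, Crem, Pde4b and Pde7a. For Adcy6 and 2 Adcy7 probe sets the groups did not overlap, so leaving out 1 array could not turn the sign. Adcy6 was also chosen for its difference, so its held sign is a description. Over the whole array, 3 probe sets passed; there were 15 with the trended and robust prior, 6 with array weights, 0 with the replicate block, 1 with 1 probe set per gene, and 0 to 6 without single arrays. The cause of these changes was not tested. Leaving out an array leaves fewer samples, and the count of 6 came from the fit without wild type replicate 3. Groups of 3 arrays were too small for a test of outlying samples. That wild type replicate 3 stood apart, by its median and its correlations, is a description. Of the 20 probe sets, 6 were dimmer than the median probe set, and RMA may understate their differences.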
